A study of Macaca mulatta with 30 samples.

Results

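The immortalized fibroblast line was the only cultured source in a study that hybridized RNA from 5 rhesus macaque sources with the rhesus macaque GeneChip, the others being cerebral cortex, pancreas, testis and thymus. The 6 arrays labelled fibroblast, of 30 arrays in all, were compared with the 24 arrays of the other tissues. The RNA of each source was split into aliquots, and each of 3 centers, Oregon, Nebraska and Yerkes, labeled and hybridized 2 of them. The fibroblast RNA was prepared at Nebraska, the cerebral cortex RNA at Yerkes and the other RNAs at Oregon. The labels give neither the body site of the fibroblasts, nor how they were immortalized, nor the age or sex of any animal, and name no treatment. The fibroblasts are 1 line and each tissue is 1 RNA, so a difference below separates these RNAs, cultured cells from whole tissue included, and cannot be assigned to the cell type alone. The spread between arrays is that of labeling and hybridization, and so are all the p-values.

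Fibroblasts build connective tissue. They secrete collagens and fibronectin, cross-link them with lysyl oxidases, cut them with metalloproteinases and pull on them through actin bundles. In culture on serum they resemble cells in a wound, which divide, contract and secrete cytokines and growth factors. An ordinary fibroblast stops dividing after a limited number of divisions, and immortalized lines have escaped that limit, by telomerase (whose catalytic subunit is encoded by TERT), by a viral oncoprotein or by another route.

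Values are log2 signals, so a difference of 1 is a doubling. Mean signal was close at Oregon and Nebraska (6.32 to 6.39 over their arrays) and higher at Yerkes (6.90 to 6.93), and center was therefore a term of the model. An SD over the 6 fibroblast arrays holds this shift as well. The array carries control probesets for both ends of GAPDH and ACTB. Over the fibroblast arrays the signal at the 3' end was higher than that at the 5' end by 1.76 ± 0.58 (SD, n = 6) in the case of GAPDH and by 2.00 ± 0.55 in that of ACTB, while the other tissues averaged 0.44 to 1.51 and 0.24 to 1.81. These controls follow the length of the labeled RNA, and their part in the results was not tested.

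The defining genes of fibroblasts went with the label. Of 11 such markers measured, 9 were higher in fibroblast than in every other tissue, among them the collagen genes COL1A1 and COL1A2, LUM (a collagen-binding proteoglycan), VIM (the mesenchymal intermediate filament) and TAGLN (an actin-binding protein). The other two, DCN and COL3A1, exceeded the next tissue by 0.77 (SE 0.09) and 0.58 (SE 0.19), under the minimum difference used for a call. MMP3, SERPINB2 and DKK1 among the 9 were chosen with earlier results of these arrays known, and without them the count was 6 of 8. None of 16 markers of neurons, glia, acinar cells, thymocytes, testis, muscle or fat was higher in fibroblast, and only ADIPOQ, a fat hormone, lay above the next tissue at all, by 0.14. Most of these mark a compared tissue, where their signal was highest, so a call in fibroblast was hardly possible. Over all genes 4.63% were higher, so few calls would stand among 16 in any case. THY1, a surface gene of fibroblasts and of neurons, was at 9.49 ± 0.32 in fibroblast, 3.18 below cerebral cortex (12.67) and 1.54, 0.99 and 1.82 above pancreas, testis and thymus. By its other probeset fibroblast was at 8.10 and cerebral cortex at 11.66, and pancreas, testis and thymus were close to fibroblast, at 8.09, 7.77 and 7.61.

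A gene was called when fibroblast differed from each of the 4 tissues at an adjusted p under 0.05 (limma) and by at least 1 from the nearest of them. By this rule 1501 of 52766 probesets, or 2.84%, were higher in fibroblast and 252, or 0.478%, were lower. Taken by gene, 655 of 14132 genes, or 4.63%, were higher in fibroblast, and 73, or 0.517%, were lower. The higher genes stood a median of 1.52 above the next tissue (1.00 to 9.07), and the lower ones a median of 1.42 below it (1.02 to 4.76). The median difference from the mean of the other tissues was -0.01 over all genes. The arrays of fibroblast did not overlap with those of any other tissue for 641 of the 655 genes and 72 of the 73. All 655 and all 73 kept their direction at each center, and 502 and 49 of them differed by at least 1 at each. The genes were picked for a difference from every tissue on these same arrays. The counts without overlap and with a kept direction therefore largely follow from the rule, and are not given over all genes. At the edge of the rule, CTNS and MFSD12 lay just inside at 1.00 above and GPAT3 and ACLY just outside, at 1.00 after rounding and at 0.99. Testis was the next highest tissue for 222 of the higher genes, pancreas for 177, thymus for 139 and cerebral cortex for 117. Without the pancreas arrays, whose lower quality the study itself noted, 802 genes were higher and 170 lower. Leaving out any tissue removes 1 of the 4 requirements and tends to raise both counts. No other tissue was left out, so these counts do not set pancreas apart. Among the 73 lower genes, thymus was the lowest other tissue for 27 and pancreas for 25.

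Many genes are covered by several probesets, of which the brightest on average stood for the gene. Of the 344 higher genes with more than 1 probeset, 160 had another that was also called higher, and 1 had another that was called lower. Of the 45 such lower genes, 14 had another that was called lower and none had one that was called higher. These counts bear on every gene named here, and the number of probesets called is given for some of them.

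The gene furthest above all other tissues was MMP3. This metalloproteinase, stromelysin, which degrades proteoglycans and activates other metalloproteinases, had a lowest, median and highest fibroblast signal of 13.56, 13.81 and 14.37, against 3.89, 4.41 and 5.21 over the 24 other arrays. No array of another tissue came near, and fibroblast exceeded pancreas, the next highest, by 9.07 (SE 0.09, limma, largest adjusted p of the 4 comparisons 5.88e-36). All the other arrays lay near the bottom of the scale for this probeset, so no fold is given. SERPINB2, an inhibitor of plasminogen activators, spanned 12.81, 12.94 and 13.52 in fibroblast and 4.16 to 5.94 elsewhere, 7.50 (SE 0.09) above thymus. DKK1, a secreted antagonist of canonical WNT signaling, spanned 11.73, 11.87 and 12.35 against 4.41 to 5.71, 6.62 (SE 0.07) above pancreas. For these 3 genes the fibroblast arrays stood far from all the others at every center, and the difference did not change between centers (adjusted p of the interaction 0.34 to 0.91). They were followed by MMP1, interstitial collagenase, at 6.20 (SE 0.09), and PCOLCE2, an enhancer of procollagen processing, at 5.66 (SE 0.06). PTX3, a soluble pattern recognition protein, stood 5.16 (SE 0.13) above the next tissue and CTHRC1, a protein of injured matrix, 5.07 (SE 0.10).

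**Figure D1:**
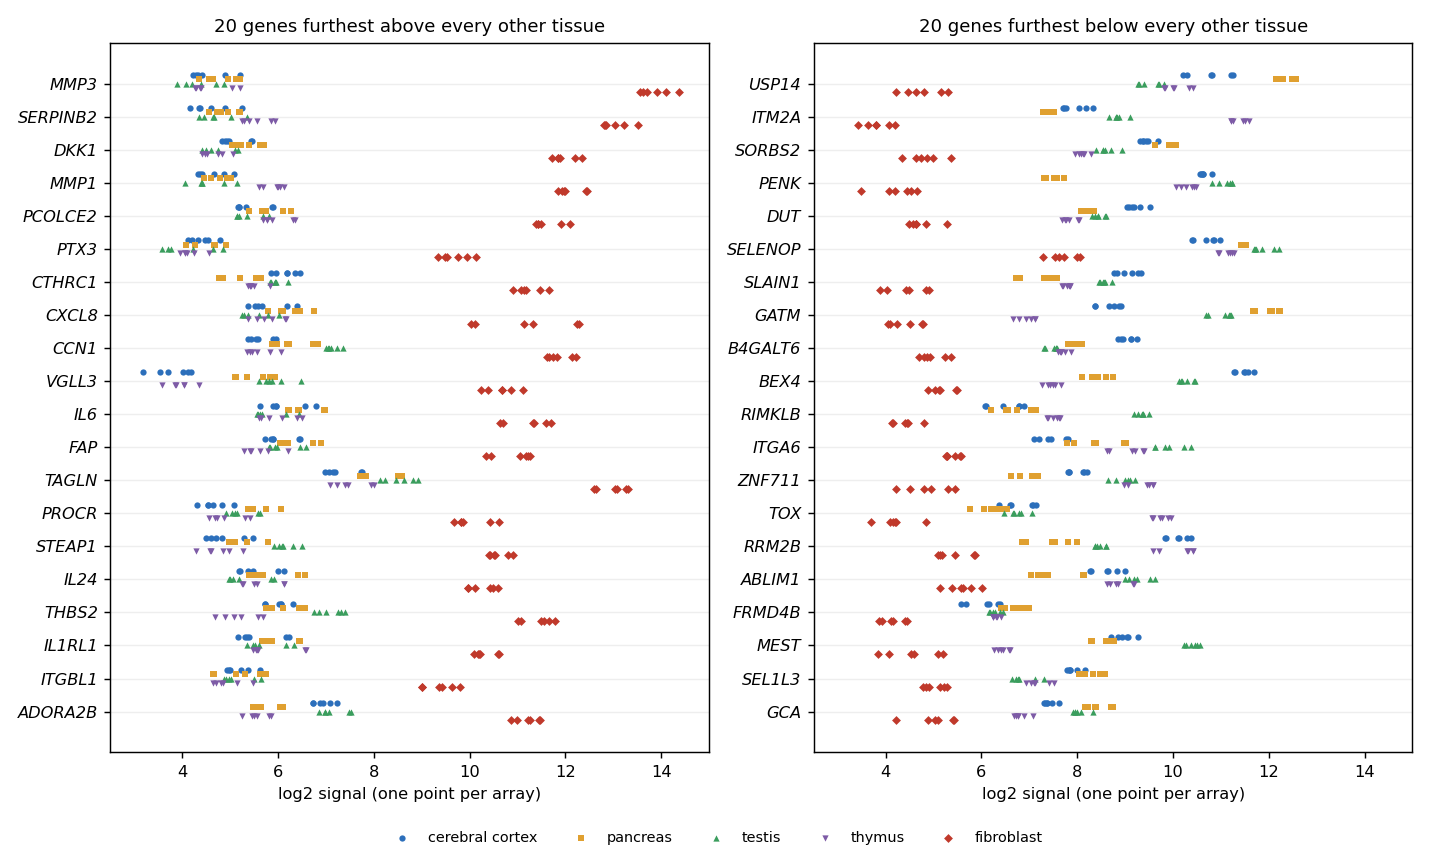
Log2 signal (x axis) of the 20 genes furthest above and the 20 furthest below every other tissue in fibroblast (y axis, one gene per line), with one point for each of the 30 arrays, coloured by tissue. Fibroblast points (diamonds) lie apart from all other tissues on every line, from MMP3 at 13.56 to 14.37 on the left to USP14 at 4.21 to 5.31 on the right.

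The remaining genes of that group of 20 divide by role. CCN1, a matricellular protein, and VGLL3, a transcriptional cofactor, were 4.74 (SE 0.08) and 4.73 (SE 0.12) above testis. FAP, a cell surface protease of activated fibroblasts, was at 4.57 (SE 0.11), and THBS2, an antiangiogenic matrix protein, at 4.33 (SE 0.08). The surface proteins PROCR, the endothelial protein C receptor, and STEAP1, a metalloreductase, stood at 4.45 (SE 0.07) and 4.44 (SE 0.09), and ADORA2B, an adenosine receptor, at 4.07 (SE 0.07). ITGBL1, a secreted protein with integrin-like repeats, was at 4.18 (SE 0.10). IL1RL1, which encodes the receptor of the cytokine IL33, was at 4.33 (SE 0.08) by 1 of its 4 probesets. The other three did not pass, and the nearest to passing stood 0.71 (SE 0.09) above the next tissue.

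Of 20 matrix protein genes measured, 12, or 60%, were higher in fibroblast, 8 were not called and none was lower. Their median difference from the mean of the other tissues was 3.36. For this list and each list below, the shares over all genes were 4.63% higher and 0.517% lower. At 0.517%, lists of this size would hold few lower members in any case. The matricellular genes led, with THBS2 above, TNC (tenascin) at 3.23 (SE 0.08) over thymus and THBS1 (thrombospondin) at 2.64 (SE 0.13) over pancreas. COL12A1, which decorates collagen fibrils, was at 3.22 (SE 0.08). Fibronectin (FN1) had a lowest, median and highest fibroblast signal of 11.01, 11.54 and 11.87, against 7.24, 8.02 and 9.47 elsewhere, and stood 2.21 (SE 0.07) above thymus. The fibrillar collagens stood closer to testis. COL1A1 was at 13.17 ± 0.17 in fibroblast and 11.68 ± 0.34 in testis, a difference of 1.50 (SE 0.15), and COL1A2 at 13.81 ± 0.32 and 12.43 ± 0.30, a difference of 1.38 (SE 0.06). Cerebral cortex was lowest for both, 7.07 and 7.26 below fibroblast. Elastin (ELN) was at 6.49 ± 0.34 in fibroblast and 6.98 in pancreas. FBLN1, a fibulin, was 0.58 below testis. COL5A2 was 0.24 below thymus by its brightest probeset, although 2 of its 4 probesets were called higher.

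The enzymes that fold and cross-link collagen went with it. Of 14 measured, 10 were higher and none lower (median 2.83). The lysyl oxidases LOX, LOXL1 and LOXL2, which cross-link collagen, stood 3.36 (SE 0.09), 3.17 (SE 0.09) and 2.91 (SE 0.10) above testis. The prolyl hydroxylase subunits P4HA2 and P4HA1, needed for a stable collagen helix, stood 3.86 (SE 0.08) and 1.96 (SE 0.08) above it. The other probeset of P4HA1 put fibroblast at 6.54, the lowest of all, and the mean of both stood at 0.33, under the minimum. SERPINH1, the collagen chaperone, was at 1.68 (SE 0.07), and PLOD2, a lysyl hydroxylase, at 1.47 (SE 0.10) over pancreas. CRTAP, a partner of prolyl hydroxylation, was at 10.05 ± 0.52 and did not differ from testis beyond the spread (-0.13, SE 0.08, adjusted p = 0.16 from limma).

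Of 15 matrix protease genes measured, 13 were higher and none lower, the highest share of the lists used. Besides MMP3, MMP1 and FAP, these held MMP10 (another stromelysin) at 3.67 (SE 0.10), CTSK (the collagen-degrading cathepsin) at 3.37 (SE 0.07), PLAU (urokinase) at 2.28 (SE 0.06), MMP9 at 1.83 (SE 0.07) over thymus and MMP2 at 1.57 (SE 0.09) over testis. MMP9 and MMP2 are the gelatinases. MMP11 and ADAMTS5 did not pass, at 0.46 (SE 0.06) and 0.12 (SE 0.07). Of 8 genes that held the protease inhibitors and the urokinase receptor, 3 were higher, namely SERPINB2, TIMP1 at 1.32 (SE 0.08) and SERPINE2 (protease nexin) at 1.24 (SE 0.07). TIMP2 and TIMP3 were 1.16 (SE 0.22) and 0.87 (SE 0.08) below testis, and PLAUR, the urokinase receptor, was 0.34 (SE 0.07) above it.

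Several metalloproteinase genes lie side by side on chromosome 14, and their neighbours were examined after their values were seen. In the gene order of the RefSeq annotation (assembly T2T-MMU8v2.0), 9 measured genes ran from MMP7 to MMP13, of which 5 were higher in fibroblast. MMP10, MMP1 and MMP3 were adjacent among the measured genes. MMP27 was higher by 2.76 (SE 0.14) and MMP13 (collagenase 3) by 1.19 (SE 0.10). MMP12, the macrophage elastase, next to MMP3, was at 9.74 in fibroblast and 9.48 in thymus, a difference of 0.27 (SE 0.15), while the remaining tissues lay at 4.16 to 5.15. MMP8, the neutrophil collagenase, between MMP27 and MMP10, was 0.73 (SE 0.08) below thymus, and MMP20, an enzyme of tooth enamel, differed by 0.14 from pancreas. The called genes of the cluster were thus interrupted by others that were not.

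**Figure D2:**
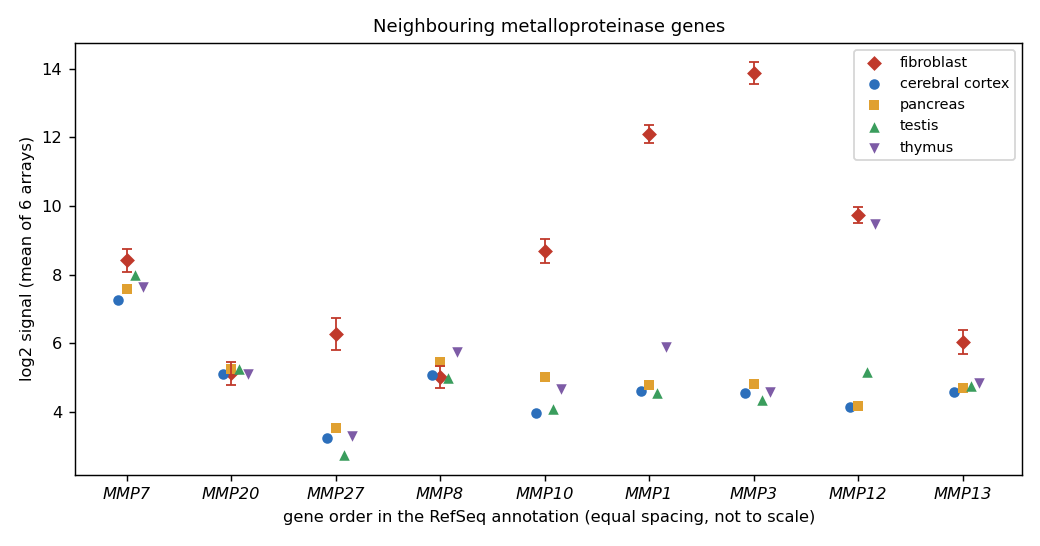
Mean log2 signal of 6 arrays (y axis) in fibroblast and each other tissue for 9 neighbouring metalloproteinase genes in their order on the chromosome (x axis, equally spaced), with error bars for the SD of the fibroblast arrays. Fibroblast stands alone at MMP10, MMP1 and MMP3, shares MMP12 with thymus (9.74 and 9.48) and lies among the others at MMP8 and MMP20.

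Of 20 ligands and antagonists of the WNT, BMP and TGF-beta pathways, 10 were higher and none lower (median 1.82). The antagonists included DKK1, FST (follistatin, which binds activin) at 3.66 (SE 0.07), SFRP1 (which binds WNT ligands) at 1.58 (SE 0.07) and GREM1 (which binds BMPs) at 1.54 (SE 0.21). The ligand WNT5A was at 3.28 (SE 0.08) with 3 of 3 probesets called. CCN2 (connective tissue growth factor) was at 1.61 (SE 0.09) and TGFBI, a TGF-beta induced matrix protein, at 2.24 (SE 0.09). TGFB1 itself was at 6.38 ± 0.23 in fibroblast and 6.89 in thymus, and BMP4 was 0.40 (SE 0.08) below testis. DKK3, a relative of DKK1, was 0.60 (SE 0.06) below cerebral cortex. GREM1 fell to 0.98 above the next tissue without the Oregon arrays, under the minimum for a call.

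Of 16 inflammatory cytokine and chemokine genes, 7 were higher and 1 was lower (median 0.37). CXCL8, the neutrophil chemokine, spanned 10.03, 11.22 and 12.28 in fibroblast against 5.24, 5.79 and 6.76 elsewhere, 4.93 (SE 0.22) above pancreas. IL6, a cytokine of the acute phase, spanned 10.64, 11.33 and 11.70 against 5.55, 6.13 and 6.97, 4.68 (SE 0.13) above pancreas. Neither gene's fibroblast arrays overlapped with any other. TNFAIP6, a hyaluronan-binding protein, stood at 3.73 (SE 0.09), the monocyte chemokine CCL2 at 3.45 (SE 0.07), LIF at 3.15 (SE 0.07), CCL20 at 3.01 (SE 0.10) and CSF2, a myeloid growth factor, at 1.13 (SE 0.08). IL24, a cytokine outside that list, was at 4.39 (SE 0.09). IL33, an alarmin of barrier cells and stroma, was the one lower member, at 4.35 ± 0.32 against 5.51 in cerebral cortex, the lowest tissue, a difference of -1.16 (SE 0.10) that became -0.98 without the Nebraska arrays. The interleukin genes IL1A and IL1B stood at 0.59 (SE 0.10) above and 0.39 (SE 0.09) below the highest other tissue. VCAM1 and ICAM1, adhesion molecules that cytokines induce, were at 5.58 ± 0.35 and 6.14 ± 0.35, and neither was called.

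Of 15 growth factors and IGF binding proteins, 8 were higher and none lower (median 2.33). FGF2, a mitogen of fibroblasts, spanned 8.91, 9.21 and 9.45 against 3.84, 4.98 and 5.54, 3.88 (SE 0.11) above cerebral cortex. The ligands of the EGF receptor family AREG, NRG1 and HBEGF were at 3.51 (SE 0.08), 2.27 (SE 0.07) and 1.68 (SE 0.06). GDF15, a stress-induced cytokine, was at 2.87 (SE 0.09). IGFBP3 and IGFBP4, which bind insulin-like growth factors, were at 3.37 (SE 0.09) and 2.38 (SE 0.12), while IGFBP5, IGFBP6 and IGFBP7 did not reach the minimum, at 0.64, 0.64 and 0.99. PDGFC was at 1.37 (SE 0.08) by its brightest probeset, but another of its 3 was at 11.56 in cerebral cortex and 5.53 in fibroblast. HGF, a mitogen of epithelium, was at 5.91 ± 0.41, 0.05 above pancreas.

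Of 19 genes of the actin and mesenchymal cytoskeleton, 15 were higher and none lower (median 3.04). TAGLN spanned 12.60, 13.06 and 13.30 against 6.99, 7.78 and 8.92, 4.45 (SE 0.07) above testis. The calcium-binding protein S100A6 was at 3.78 (SE 0.07), ANXA2 (annexin, a membrane organizer) at 3.39 (SE 0.08) and LGALS1 (galectin) at 3.09 (SE 0.09). CAV1 (caveolin) was at 2.66 (SE 0.06), the tropomyosins TPM2 and TPM1 at 2.52 (SE 0.13) and 1.91 (SE 0.07), and LMNA (nuclear lamin) at 1.29 (SE 0.08). TPM2 was called by its brightest probeset only, and its others stood from -0.73 to 0.92 against the next tissue. The other probeset of ANXA2 put fibroblast at 5.79 and cerebral cortex at 7.71. The contractile genes MYL9 and CNN1 stood 0.71 (SE 0.09) and 0.39 (SE 0.08) above testis, under the minimum. ACTN1 (actinin) was 0.22 (SE 0.11) below testis.

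Of 18 surface receptors, 3, or 16.7% against 4.63% of all genes, were higher and none lower (median 0.87). OSMR, a receptor of the IL6 family, was at 1.29 (SE 0.06), ITGB1, the common integrin beta chain, at 1.37 (SE 0.20) and MET, the receptor of HGF, at 1.05 (SE 0.07) by 1 of 5 probesets. ITGB1 stood at 0.97 without the Oregon arrays and MET at 0.99 without the Yerkes arrays. The mean of all probesets of OSMR stood at 0.77, under the minimum. CD44, the hyaluronan receptor, and NT5E were not called, at 0.57 (SE 0.14) and -0.04 (SE 0.06). Of 22 transcription factors of fibroblasts, 6 were higher and none lower (median 0.85), led by the mesenchymal homeobox genes PRRX1 at 3.40 (SE 0.08) and PRRX2 at 1.99 (SE 0.07). PRRX1 spanned 10.39, 10.75 and 11.03 against 5.06, 5.84 and 7.63. FOXF1, TBX3, TBX15 and TWIST1, which pattern mesenchyme, were at 1.65 (SE 0.10), 1.51 (SE 0.08), 1.41 (SE 0.07) and 1.35 (SE 0.10).

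The HOX genes, whose combination marks the position of a fibroblast along the body, gave no call in either direction among 26 measured (median -0.13), where 4.63% of all genes were higher and 0.517% lower, so the lack of calls sets so short a list little apart from the rest. In fibroblast 25 of these lay at or below 6.59, and HOXD10 stood apart at 8.62 ± 0.27, between pancreas (9.08) and testis (8.20) and 1.69 (SE 0.07) above cerebral cortex. HOXA13 and HOXD13, of the distal limb, were at 4.43 and 5.76 and within 0.20 of the highest tissue. A level near the bottom of the scale does not show that a gene was silent, since the files give no detection call.

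**Figure D3:**
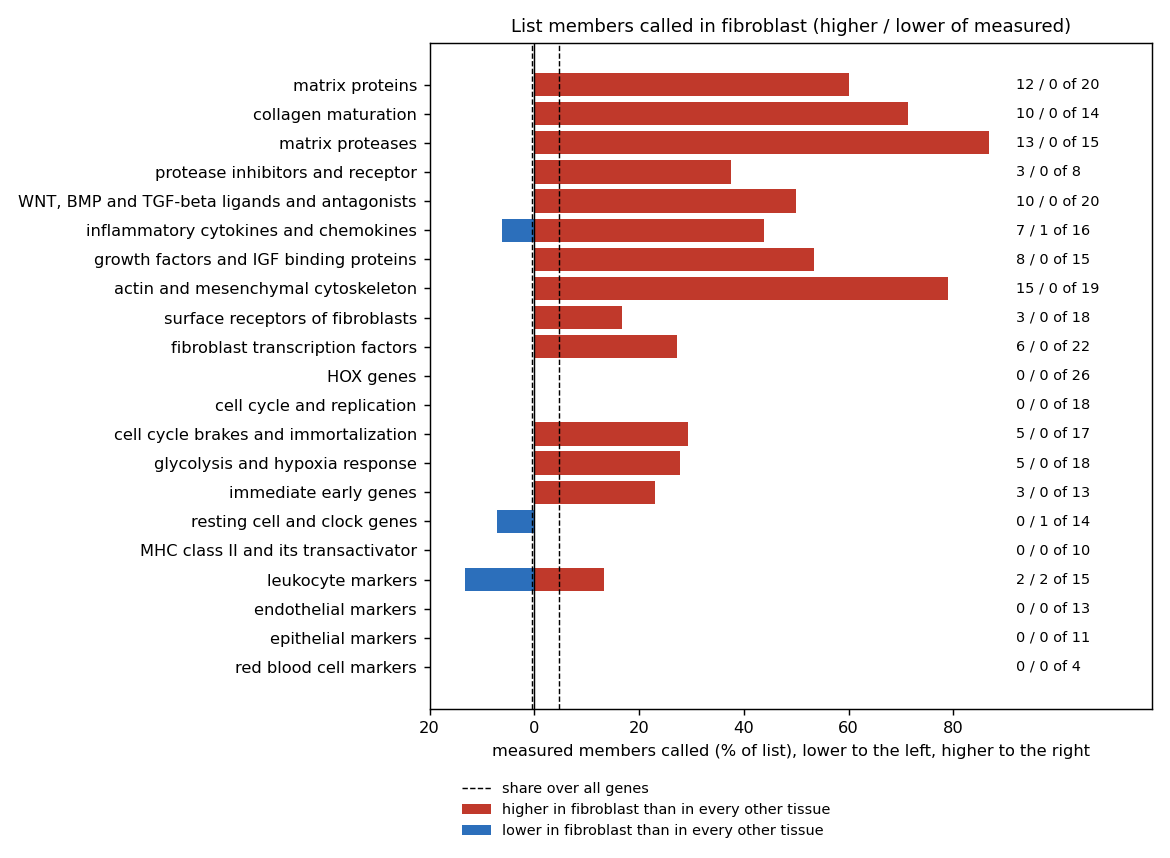
Share of the measured members of each gene list (x axis, percent) that were higher (red, to the right) or lower (blue, to the left) in fibroblast than in every other tissue, with the counts at the right and dashed lines at the shares over all genes, 4.63% and 0.517%. Matrix proteases (13 of 15) and the cytoskeleton (15 of 19) reach furthest, and HOX, cell cycle and epithelial genes have none.

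Over all the lists together 326 genes were measured, of which 102 were higher and 4 lower. The lists were assembled with results of these arrays known and describe them without testing them. In 13 of the 102 the difference fell under 1 when all 30 arrays were quantile normalized together, among them PLOD2 (0.73), FLNC (0.31), MMP14 (0.88) and ENO2 (0.82).

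Genes of the cell cycle placed fibroblast second to thymus, a tissue of dividing thymocytes. None of 18 was called in either direction. All 18 were higher in fibroblast than in cerebral cortex, 17 were higher than in pancreas and 14 than in testis (limma, adjusted p under 0.05), and 17 were lower than in thymus. With the minimum difference of 1, 15 were higher than in cerebral cortex and 15 than in pancreas, against 16.9% and 19.1% of all genes, 9 were higher than in testis against 11.1%, and 9 were lower than in thymus against 9.06%. MKI67, the proliferation antigen, was at 8.53 ± 0.30 in fibroblast, 10.56 in thymus, 6.99 in testis, 6.15 in pancreas and 5.82 in cerebral cortex. TOP2A, a topoisomerase of mitosis, was 1.79 (SE 0.12) below thymus and 4.86 above cerebral cortex. TYMS, which makes thymidylate for replication, was at 9.51 ± 0.34 in fibroblast and 9.70 in thymus, a difference that did not pass (adjusted p = 0.063 from limma). CCNE2, a cyclin of entry into S phase, was at 6.39 ± 0.48 in fibroblast and 8.80 in thymus.

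Of 17 brakes of the cell cycle and genes tied to immortalization, 5 were higher in fibroblast and none lower (median 0.77). TERT spanned 9.60, 9.85 and 10.38 in fibroblast against 5.33, 5.78 and 6.75 elsewhere, 3.84 (SE 0.07) above thymus (limma, adjusted p = 1.39e-29). Its fibroblast arrays stood apart from all others at each center, by 1 of 2 probesets. The second probeset was at 6.35 in fibroblast and 6.93 in thymus. The measured neighbours of TERT, SLC6A18 and CLPTM1L, were 0.85 (SE 0.07) below pancreas and 0.26 (SE 0.07) above it. CDKN2A, which encodes a cyclin-dependent kinase inhibitor and, in another frame, an activator of the p53 pathway, spanned 9.87, 10.26 and 10.32 against 5.51, 6.15 and 6.71, 3.79 (SE 0.08) above thymus, with 2 of 3 probesets called. CDKN1A, the inhibitor that p53 induces, spanned 11.20, 11.40 and 11.74 against 7.03, 7.84 and 8.76, 3.12 (SE 0.07) above cerebral cortex. Fibroblast stood clear of every other array for both. The kinase partners CCND1 and CDK4, which these inhibitors oppose, were also higher, by 2.31 (SE 0.09) and 1.39 (SE 0.06).

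The other 12 were not called, and CDKN2C, CCND3 and MYC among them lay below thymus and above the remaining tissues, as most cell cycle genes did. CDKN1B, an inhibitor of quiescent cells, was at 7.38 ± 0.23 in fibroblast, below every tissue by 0.45 to 2.33 but short of the minimum difference. RB1, the retinoblastoma gene, and its relative RBL2 were 0.59 (SE 0.09) and 1.56 (SE 0.08) below thymus. MDM2, a p53 target that degrades p53, was at 7.08 ± 0.38 and 0.53 (SE 0.10) below thymus, and GADD45A, another p53 target, was 0.35 (SE 0.10) above it. MYC was at 8.49 ± 0.18, between thymus (9.29) and the remaining tissues (5.96 to 7.53).

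**Figure D4:**
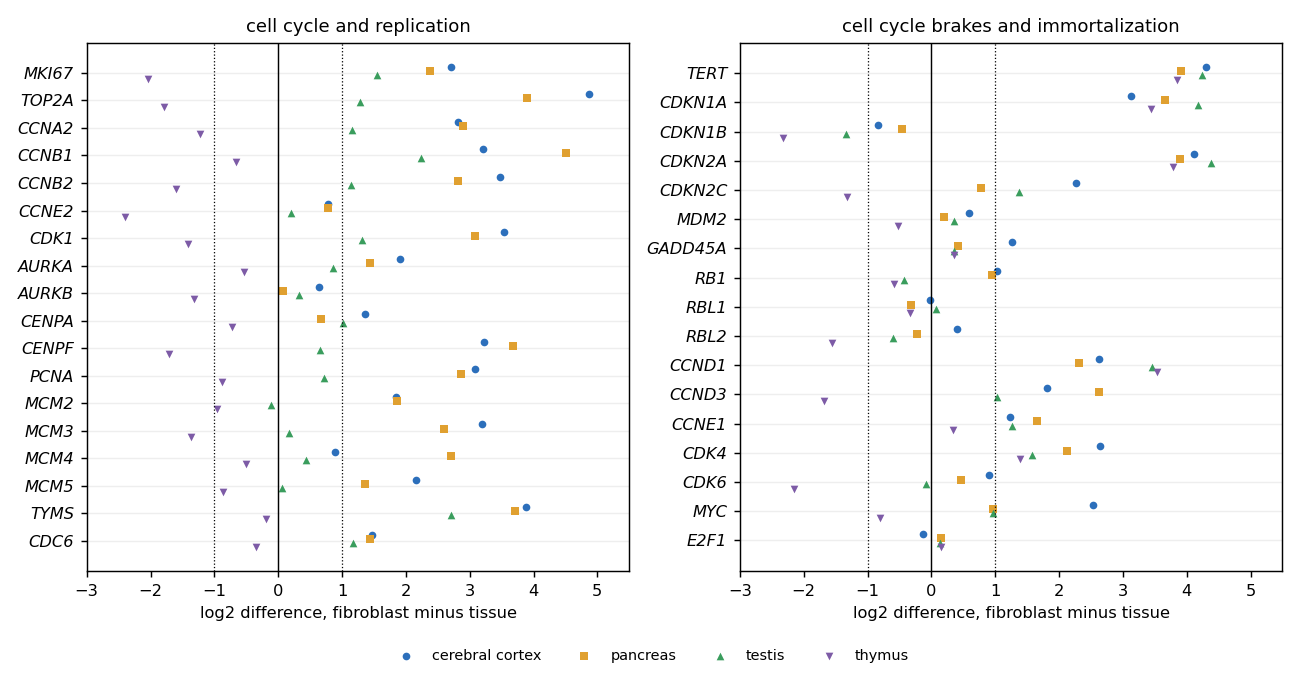
Log2 difference of fibroblast from each other tissue (x axis) for 18 cell cycle genes (left) and 17 brakes and immortalization genes (right), one gene per line, with dotted lines at the minimum difference of 1. On the left the thymus points lie to the left of 0 and most other points to the right, and on the right TERT, CDKN2A, CDKN1A, CCND1 and CDK4 lie beyond 1 from every tissue.

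Of 18 genes of glycolysis and the hypoxia response, 5 were higher and none lower (median 1.22). ADM (adrenomedullin), a hypoxia-induced peptide, spanned 11.08, 11.31 and 11.69 against 5.12, 6.89 and 8.03, 3.67 (SE 0.07) above thymus. The glucose transporter SLC2A3 and the phosphofructokinase PFKP were at 1.57 (SE 0.09) and 1.16 (SE 0.08) above cerebral cortex, the next tissue for most of these genes. LDHA, lactate dehydrogenase, was at 11.55 ± 0.17 in fibroblast and 11.46 in thymus and did not pass (adjusted p = 0.16 from limma). CA9, a hypoxia target, was at 6.62 ± 0.32, 0.96 (SE 0.06) below pancreas. PKM was at 1.06 (SE 0.17) by 1 of 3 probesets, and at 0.79 without the Nebraska arrays. When all 30 arrays were quantile normalized together, PFKP stood at 0.94, ENO2 at 0.82 and PKM at 0.88, under the minimum. The mean of all probesets of SLC2A3 stood at 0.96. Of the 5 called genes, ADM alone stayed above the minimum in both of these settings.

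Of 13 immediate early genes, which respond to serum and to tissue handling, KLF6, FOSL2 and KLF4 were higher, by 1.56 (SE 0.08), 1.36 (SE 0.08) and 1.35 (SE 0.07), and none was lower. With all probesets of a gene averaged, KLF6, FOSL2 and KLF4 stood at 0.93, 0.99 and 0.92, under the minimum. KLF6 also stood at 0.95 when all 30 arrays were quantile normalized together. FOS and JUNB stood 0.91 (SE 0.07) and 0.63 (SE 0.07) above cerebral cortex, under the minimum, and EGR2 was 2.31 (SE 0.12) below thymus. Of 14 genes of resting cells and the circadian clock, none was higher and TSC22D3, a glucocorticoid-induced gene, was lower, at 7.35 ± 0.32 against 8.76 in cerebral cortex, the lowest tissue (-1.41, SE 0.07). TXNIP, which glucose and growth arrest induce, was 3.23 (SE 0.07) below testis and 0.35 below cerebral cortex by its brightest probeset, with 3 of 5 probesets called lower. The median of the list was -0.56, against -0.01 over all genes.

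Genes lower in fibroblast than in every tissue were fewer and mostly dim, and for 57 of the 73 the fibroblast mean lay below the mean of the array medians. USP14, a deubiquitinase bound to the proteasome and found in most cells, was the furthest. It spanned 4.21, 4.72 and 5.31 in fibroblast against 9.26, 10.31 and 12.57 elsewhere, with testis the lowest tissue at 9.52 and pancreas the highest at 12.32. The difference from testis was -4.76 (SE 0.13, limma, adjusted p = 2.19e-24), and no fibroblast array came near any other. All 5 probesets of USP14 were called lower, by 2.63 to 4.76, several of them named for the same transcript and therefore not independent. The measured neighbours on either side, ROCK1 and COLEC12, were at 9.64 and 7.24 in fibroblast, and neither was called.

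ITM2A, a membrane protein of cartilage and thymocytes, spanned 3.42, 3.80 and 4.19 in fibroblast against 7.29, 8.50 and 11.59, 3.56 (SE 0.10) below pancreas. SORBS2, a scaffold of stress fibers, was at 4.82 ± 0.35, 3.28 (SE 0.09) below thymus. PENK, the precursor of the enkephalin opioids, was at 4.23 ± 0.42, 3.27 (SE 0.11) below pancreas. DUT, the dUTPase that keeps uracil out of DNA, spanned 4.49, 4.63 and 5.29 against 7.67, 8.33 and 9.53, 3.10 (SE 0.08) below thymus, by its only probeset. Its measured neighbours SLC12A1 and FBN1 (fibrillin) were at 5.91 and 12.28, and FBN1 was higher in fibroblast by 1.24 (SE 0.07). RRM2B, the p53-inducible ribonucleotide reductase subunit, was at 5.43 ± 0.35 by its brightest probeset, 2.00 (SE 0.10) below pancreas. Its 4 probesets disagreed, and 2 of them put fibroblast 0.89 (SE 0.10) and 0.74 (SE 0.08) above every other tissue, so no direction can be given for it.

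SELENOP, the plasma carrier of selenium, was at 7.70 ± 0.29 in fibroblast and at 10.69 to 11.89 in the tissues, with both probesets called, which sets it among the lower genes that were not dim in fibroblast. GATM, which makes the precursor of creatine, was 2.54 (SE 0.08) below thymus and 7.58 below pancreas. B4GALT6, a lactosylceramide synthase, and BEX4, a brain-expressed gene on the X chromosome, were 2.49 (SE 0.09) and 2.27 (SE 0.07) below the lowest tissue. The second probeset of BEX4 put fibroblast at 8.71 and the tissues at 7.70 to 8.67, so no direction can be given for BEX4. SLAIN1, a microtubule regulator, was at -2.79 (SE 0.12), ZNF711, a zinc finger protein, at -2.03 (SE 0.13) and TOX, a regulator of T cell development, at -2.01 (SE 0.13). The laminin receptor subunit ITGA6 was 2.06 (SE 0.13) below cerebral cortex with 3 of 4 probesets called. MEST, an imprinted gene expressed from the paternal allele, was at 4.55 ± 0.54, 1.89 (SE 0.12) below thymus. The cytoskeletal adaptors ABLIM1 and FRMD4B were at -1.94 (SE 0.09) and -1.90 (SE 0.10). RIMKLB, a peptide ligase of the brain, was at -2.11 (SE 0.13) by 1 of 4 probesets.

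The mean level of each list of markers of other cells that a whole tissue holds (leukocyte, endothelial, epithelial, red blood cell and MHC class II) was lowest in fibroblast, for red blood cells at 6.50 with testis at 6.54. Cerebral cortex was close for MHC class II (6.54 in fibroblast and 6.65 in cortex) and for epithelial markers (6.12 and 6.34). For both lists the fibroblast arrays overlapped with those of cerebral cortex. A tissue mean mixes all its cells, and fewer cells of a type cannot be told apart from less RNA per cell. Of 15 leukocyte markers, TYROBP, a signaling adaptor of myeloid cells, and C1QA, a complement subunit of macrophages, were lower, by 1.33 (SE 0.08) and 1.51 (SE 0.08). The other probeset of C1QA put fibroblast at 6.69, below pancreas (7.16) and above the remaining tissues (5.91 to 6.43). The mean of both stood at -0.37, short of the minimum, so the direction of C1QA rests on 1 probeset. The mean level of the list ran from 6.28 to 6.91 over the fibroblast arrays, from 6.57 to 7.61 over those of cerebral cortex, pancreas and testis and from 8.77 to 9.41 over those of thymus. PTPRC (CD45), which defines leukocytes, was at 5.75 ± 0.28 in fibroblast and 11.90 in thymus. Against this, CD14, the lipopolysaccharide receptor of monocytes, was higher in fibroblast by 1.38 (SE 0.06), at 8.34, 8.45 and 9.16 against 6.47 to 7.68. ITGB2, the beta chain of the leukocyte integrins, was higher by 1.20 (SE 0.15), with 2 of 4 probesets called, arrays that overlapped with thymus, and 0.74 without the Oregon arrays.

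None of 13 endothelial, 11 epithelial, 4 red blood cell or 10 MHC class II genes was called in either direction, and with 4.63% of all genes higher and 0.517% lower, few calls would stand in lists of this size in any case. TEK, an angiopoietin receptor, lay the furthest below every tissue among the endothelial genes, at 5.35 ± 0.39 and 0.80 below cerebral cortex. PECAM1 was at 6.52 ± 0.32, also below every tissue. FLT1, EGFL7, KDR, ROBO4 and CDH5 instead lay above at least 1 tissue, as did the epithelial genes KRT7, PROM1 and KRT18, among others. CD74, the invariant chain of MHC class II, was at 6.48 ± 0.41 in fibroblast, 7.25 in cerebral cortex and 10.98 in thymus, and MAMU-DRA at 6.29 ± 0.37, 6.85 and 12.44. All members of the MHC class II list apart from MAMU-DQB1, MAMU-DMA, MAMU-DOA, CIITA and CTSS lay below every other tissue, by at most 0.77.

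The same fibroblast RNA did not give the same difference at each center for every gene. The difference from the mean of the other tissues varied between centers for 8758 probesets, or 16.6%, and for 2710 genes, or 19.2% of those tested (limma, adjusted p under 0.05), and for 185 of the 655 higher genes and 31 of the 73 lower ones. The 5 higher genes with the widest range were highest at Oregon and lowest at Nebraska in each case. CXCL8 stood 6.57 above the other tissues at Oregon (fibroblast arrays 12.28 and 12.24), 4.45 at Nebraska (10.11 and 10.03) and 4.98 at Yerkes. ITGB1 stood at 3.73, 1.85 and 2.76, GREM1 at 3.19, 1.31 and 1.32, GLRX (glutaredoxin, a thiol reductase) at 3.13, 1.64 and 2.31, and CEMIP (which degrades hyaluronan) at 2.35, 0.98 and 1.31. The arrays of CEMIP overlapped with those of other tissues, and without the Oregon arrays it stood 0.94 above the next tissue, under the minimum. The differences of these 5 genes remained positive at each center. The 3' minus 5' difference of GAPDH in fibroblast was widest at Nebraska, 2.48, against 1.32 for Oregon and 1.47 for Yerkes. The other tissues averaged 0.54 at Nebraska, 1.31 at Oregon and 0.72 at Yerkes, so fibroblast was close to them only at Oregon. The part of this control difference in the ranges was not tested. The 5 lower genes with the widest range had narrower ranges, but they were picked from 73 genes rather than 655. The share whose difference varied between centers was larger among the lower genes (31 of 73) than among the higher ones (185 of 655). USP14 stood at -5.74, -6.43 and -5.55 at Oregon, Nebraska and Yerkes, the nuclear receptor corepressor NRIP1 at -2.22, -2.90 and -1.77, and ZFP36, which destabilizes cytokine mRNAs, at -2.90, -2.21 and -1.99.

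**Figure D5:**
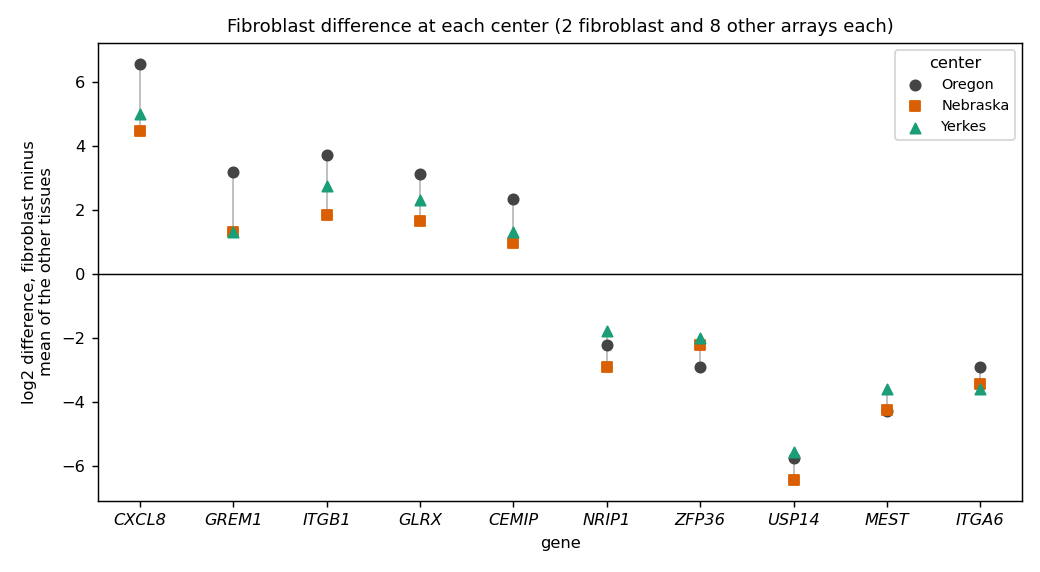
Log2 difference of fibroblast from the mean of the other tissues (y axis) at each center for the 5 higher and the 5 lower genes whose difference varied most between centers (x axis), from 2 fibroblast and 8 other arrays per center. The higher genes are all highest at Oregon, with CXCL8 from 4.45 to 6.57, and no gene changes sign.

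Genes called in fibroblast were spread over the chromosomes. On the autosomes and the X chromosome in the RefSeq assembly, from 2.35% (chromosome 20) to 7.53% (chromosome 18) of genes were higher, and the median difference from the other tissues ran from -0.05 to 0.07. Chromosome 18, with 186 genes, also holds USP14. Runs of 3 adjacent measured genes that were all higher occurred 5 times, namely the metalloproteinases, MZT2B with CCDC115 and IMP4, PPP4R1 with RAB31 and APCDD1, RUNDC3B with ABCB1 and ABCB4 (transporters of drugs and phospholipids), and SQSTM1 (an autophagy receptor) with RNF130 and GFPT2. No such run was lower.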

How the data were processed

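RNA was extracted with Trizol, labeled with biotin from an oligo(dT) primer and hybridized at each center. The authors deposited log2 probeset values made in their pipeline, in which MAS background correction was followed by quantile normalization within each center and RMA summarization of all 30 arrays. Detection calls and depth are not part of such values. From these, limma 3.58.1 in R 4.3.3 fitted tissue and center over all 30 arrays and 52766 probesets (99 control probesets left out). The 4 contrasts of fibroblast with each tissue were each adjusted by Benjamini-Hochberg over all probesets. A call required 4 adjusted p under 0.05 and a difference of at least 1 from the nearest tissue. Of 52865 probesets, 24969 carried 1 symbol in the platform annotation used, 361 several and 27535 none, and a gene was its single-symbol probeset with the highest mean over all arrays. List members with no such probeset (99) are not analysed here. A second limma model with tissue at each center tested the change of the fibroblast difference between centers. Named genes were the 20 with the largest differences in each direction (symbols other than LOC), list members, cell type markers and the 5 per direction with the widest range over centers, neighbours and edge genes being added after their values were seen. The members and lists were chosen with earlier results of these data known. Aliquots are technical replicates of 1 RNA per source. Deviations of same-numbered fibroblast and other arrays correlated between -0.06 and 0.07 at Oregon and Nebraska. At Yerkes they ran from -0.30 to 0.03, and the numbers were not used to pair arrays. Scripts were tested on simulated data. Alternatives covered normalization, center term, aliquots, arrays left out, dim probesets, adjustment, minimum difference and probeset choice.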

Additional observations from a re-analysis of the deposited data

Results flagged for a closer look

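For 10 called genes the fibroblast difference from the mean of the other tissues changed between centers (limma interaction, adjusted p from 6.47e-10 to 0.0142), and the range over the 3 centers is given here for each. Among the higher genes it was 2.12 for CXCL8, 1.88 for GREM1, 1.88 for ITGB1, 1.50 for GLRX and 1.38 for CEMIP. Among the lower genes it was 1.13 for NRIP1, 0.91 for ZFP36, 0.89 for USP14, 0.71 for MEST and 0.69 for ITGA6. These genes were picked as the widest of those that changed, and the cause was not tested.

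GCA, a calcium-binding protein lower in fibroblast, had 1 of its 6 fibroblast arrays apart from the others after the mean of the other tissues at its center was removed. The gap to the nearest array was 0.70 of the whole range. Chance alone sets 1 array apart in about 1 in 20 such groups, and 40 genes were examined.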

How the results depend on the processing

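The counts of higher and lower genes stayed within 1.5 times their values of 655 and 73 in most alternatives, apart from those given here. Without the pancreas arrays the lower probesets went from 252 to 619 and the lower genes to 170. With no minimum difference, 5354 probesets and 2356 genes were higher and 3475 and 897 lower, with 31 list members lower. With a minimum of 2, 430 probesets and 186 genes were higher and 41 and 16 lower, with 50 list members higher and 0 lower, against 102 and 4 at the minimum of 1. A difference of at least 1 at each center, chosen after seeing the data, left 150 lower probesets. The difference varied between centers for 8758 probesets, but for 1694 without Oregon, 4770 without Nebraska and 7616 without Yerkes, and the cause was not tested. Quantile normalization of all 30 arrays gave 466 higher and 72 lower genes, of which 459 and 62 were among the 655 and 73, and shifted the median of all genes by 0.01. Leaving out each fibroblast array in turn gave 635 to 675 higher and 71 to 77 lower genes, 1474 to 1553 and 239 to 276 probesets, and 102 to 106 and 4 to 4 list members.

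Averaging all probesets of a gene reversed the sign for RRM2B (0.53), PDGFC (-0.56), MET (-0.30) and PKM (-0.36), and gave 524 higher and 51 lower genes. Among the named genes alone, and besides those reversed, it took 20 called genes under the minimum. These held COL1A1 at 0.84, P4HA1 at 0.33, FBN1 at 0.64, SERPINH1 at 0.88, GREM1 at 0.53, MMP2 at 0.97, C1QA at -0.37 and RIMKLB at -0.97. Of 139 named genes called, 104 kept their call in all 18 settings other than those of the minimum difference and of each center.

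A replicate block (the aliquot number within each center) gave 655 higher and 73 lower genes, as without it, and 8421 probesets whose difference varied between centers. Same-numbered fibroblast and other arrays correlated between -0.30 and 0.07 in their deviations, so the block was not used. Sources in 1 RNA each, dim values at the bottom of the scale and probesets that disagree limit all of these results.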

Other observations

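Some genes came close to a call. STC1 (stanniocalcin), IGFBP7 and the collagen receptor subunit ITGA2 stood 0.99 above the next tissue (SE 0.14, 0.09 and 0.08), and SNAI1, a repressor of epithelial genes, 0.98 (SE 0.08). LTBP2, which anchors latent TGF-beta, was 2.40 (SE 0.11) below testis by its brightest probeset although 2 of its 3 probesets were called higher.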
